A study of Mus musculus with 8 samples.

Results

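The genes described here mark amacrine and horizontal cells, the interneurons of the inner and outer retina. They were chosen by symbol: Gad1, Gad2, Slc32a1, Slc6a9, Tfap2a, Tfap2b, Calb1, Calb2, Pax6 and Prox1. Of these 10 genes, 9 had a row among the 12339 genes analysed, and Calb1 had none. The values come from RNA-seq after RiboTag, in which Cre switches on a tag on the ribosomal protein Rpl22 so that the ribosome-bound RNA of chosen cells can be pulled down, here the Müller glia that span the retina. The 8 libraries were made from mouse retina at postnatal day 14 of oxygen-induced retinopathy, in which a stay in high oxygen followed by normal air leaves the young retina short of vessels. There were 4 libraries from mice with Nrf2 conditionally knocked out in Müller cells (cKO) and 4 from wild type mice (WT), numbered 1, 3, 4 and 5 in each group. Both groups had the same tissue, age and retinopathy. The labels give neither the Cre driver and deleted exon nor the alleles that the WT mice carried, and they do not say whether a library came from 1 animal, so p-values measure the spread between these libraries, which may be technical.

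Amacrine cells sit in the inner retina and release mostly GABA or glycine onto bipolar, ganglion and other amacrine cells, while horizontal cells feed back onto photoreceptors. GABA is made from glutamate by the glutamate decarboxylases, and a single vesicular carrier loads both GABA and glycine into synaptic vesicles. Amacrine and horizontal cells arise from progenitors that express Pax6, and the AP-2 transcription factors act early in both cell types. Pax6 and Prox1 are not restricted to these neurons, since Müller cells and, for Prox1, some bipolar cells also express them.

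The start regions of the members that changed with the replicate number in the fit (below) are shown to place these genes on the genome. RefSeq (GRCm38.p6) listed start sites for 8 of the 10 genes, in 13 windows; Calb1 and Calb2 were the others. The 250 bases before the most upstream listed start are printed 5′ to 3′ on the strand of the gene, at chr1:19211804-19212053 (plus strand) for Tfap2b, chr13:40734921-40735170 (minus strand) for Tfap2a and chr2:70561879-70562128 (plus strand) for Gad1. Capitals mark a match to the core of the antioxidant response element, the site bound by Nrf2 with its partners, on either strand.
Tfap2b: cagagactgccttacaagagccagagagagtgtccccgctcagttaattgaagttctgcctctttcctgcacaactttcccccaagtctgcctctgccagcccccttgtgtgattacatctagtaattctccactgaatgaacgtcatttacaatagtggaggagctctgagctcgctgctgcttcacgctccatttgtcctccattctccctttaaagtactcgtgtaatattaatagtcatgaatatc
Tfap2a: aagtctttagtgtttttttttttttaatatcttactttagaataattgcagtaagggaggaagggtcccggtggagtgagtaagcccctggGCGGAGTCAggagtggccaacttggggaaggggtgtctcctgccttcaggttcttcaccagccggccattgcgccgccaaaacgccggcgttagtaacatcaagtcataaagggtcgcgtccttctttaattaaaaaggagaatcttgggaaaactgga
Gad1: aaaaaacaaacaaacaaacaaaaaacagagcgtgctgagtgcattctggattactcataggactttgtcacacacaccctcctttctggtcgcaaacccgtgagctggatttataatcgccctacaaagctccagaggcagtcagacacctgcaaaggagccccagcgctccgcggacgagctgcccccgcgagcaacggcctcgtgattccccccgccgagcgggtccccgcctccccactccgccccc
The core was searched as TGACNNNGC and the AP-2 site as GCCNNNGGC, both on both strands. The first was present in 5 of the 13 windows (38.5%), against 10.2% of all 32851 windows of this length. The second was present in 2 of the 13 (15.4%), against 13.7% of all windows. The windows with the antioxidant core were 1 of Gad2, 1 of Tfap2a, 1 of Pax6 and 2 of Slc6a9, and those with the AP-2 site were 1 of Gad2 and 1 of Pax6. In the Gad2 window a match to each motif shared bases. These matches describe letters, and binding was not measured.

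Values are FPKM, fragments scaled to transcript length and library size, as deposited, so the number of fragments behind a value is unknown. FPKM summed to between 410581 and 448130 per library. Nfe2l2, the gene of Nrf2, was at 12.7, 16.5, 14.8 and 10.4 FPKM in cKO libraries 1, 3, 4 and 5, against 17.5, 18.8, 23.1 and 17.5 FPKM in WT libraries 1, 3, 4 and 5. All cKO values lay below all WT values, with a difference of −0.50 in log2(FPKM + 0.5) (p = 0.0286 by a two-sided exact permutation test, at which the 70 possible assignments bottom out). That test does not use the replicate number. In the limma fits described below, the adjusted p of Nfe2l2 was 0.453 without the replicate number and 0.0219 with it as a block. The Müller cell markers Glul, at 3150.2 ± 840.3 FPKM in cKO and 3875 ± 825 FPKM in WT, and Rlbp1, at 1325 ± 168 and 1462 ± 286 FPKM (SD, n = 4 each), were among the most abundant genes. The female-specific RNA Xist was below 0.1 FPKM in cKO 4 and cKO 5, against 25.0 to 72.1 FPKM in the other 6 libraries. The members' differences in those 6 libraries alone are given after the comparison of all 8.

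The members ranged from Pax6 near the top of the table to Gad2 near its bottom. Pax6 stood at percentile 96.9 and Prox1 at percentile 92.0 of the mean FPKM of all genes. Slc6a9, Calb2, Gad1 and Tfap2b formed a middle tier, at 13.4 ± 3.57, 11.6 ± 2.28, 7.26 ± 1.21 and 7.09 ± 1.59 FPKM in cKO and at 16.9 ± 3.11, 14.9 ± 3.06, 10.4 ± 2.99 and 11.5 ± 3.75 FPKM in WT (SD, n = 4 each). Slc6a9 overlapped Calb2, and Gad1 overlapped Tfap2b, in both groups, so the order within each of these pairs is not resolved, while Calb2 lay above Gad1 and Tfap2b in every cKO library and overlapped both in WT. Below it stood Slc32a1, Tfap2a and Gad2, and here Tfap2a and Gad2 overlapped in both groups, and Slc32a1 and Tfap2a in WT alone. Pax6 against Prox1, Prox1 against Slc6a9, and Gad1 against Slc32a1 did not overlap in either group. Every gene analysed had a mean above 2 FPKM over the 8 libraries. The cKO means of Tfap2a and Gad2 were 1.89 and 1.90 FPKM, so these genes met that level through their WT values. RNA of a cell type in such a pull-down depends on the number of its cells, the RNA per cell and its carry-over into the pull-down, which cannot be told apart in these data.

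**Figure D1:**
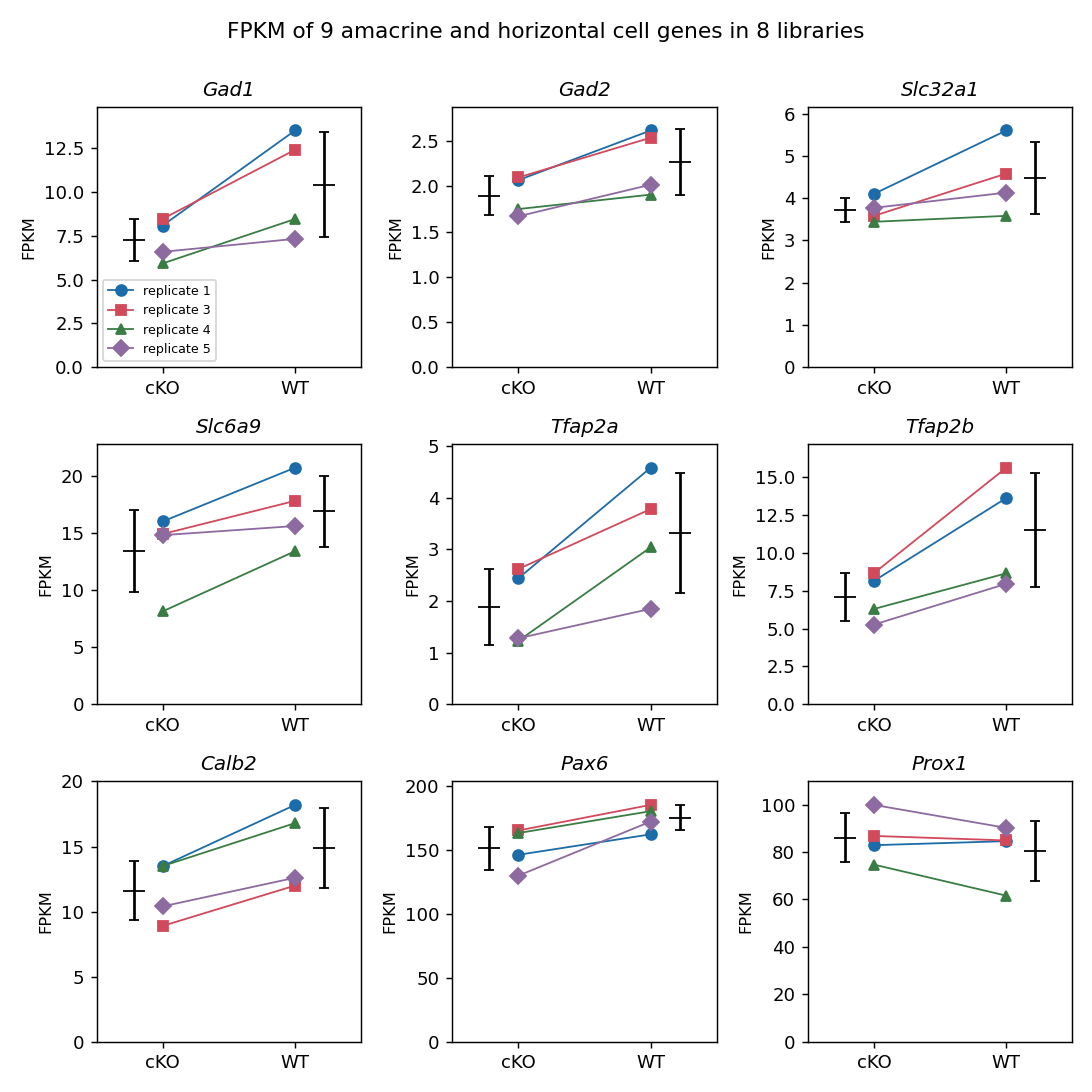
FPKM of the 9 members in each library, cKO at the left and WT at the right of each panel, with lines joining libraries of the same number and black bars for the mean ± SD (n = 4 each). The cKO end of the line is the lower one in all 4 pairs for each gene except Prox1, while cKO and WT values overlap in every panel.

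The comparison of cKO with WT asked which of these RNAs differed when Nrf2 was deleted in Müller cells. Tfap2b, Gad1 and Calb2 fell in cKO by between 0.35 and 0.63 in log2(FPKM + 0.5) in the fit that used the replicate number. Tfap2a passed there too, but it met the 2 FPKM level through its WT values, which favours a lower cKO value, and the other 5 members did not pass. Of the 9 members, 8 had a lower mean in cKO and 1, Prox1, a higher one, where 49.3% of all genes had a difference below 0. The median difference was −0.34, against 0.00 over all genes. Without the replicate number, 0 of 9 members passed an adjusted p of 0.05 (limma, Benjamini-Hochberg over 12339 genes), as did 0% of all genes. At an unadjusted p under 0.05 were Tfap2b, Gad1 and Tfap2a, all lower, where 6.67% of all genes were lower and 3.95% higher at that level. Libraries of the same number deviated together from their group means, which by the rule used here makes them pairs, so a second limma fit took the replicate number as a block. In it 4 of 9 members fell and 0 rose, where 7.59% of all genes fell and 2.99% rose. Without Tfap2a and Gad2, the members with a cKO mean below 2 FPKM, 3 of 7 fell. All 8 members with a lower mean were lower in each of the 4 pairs, as were 19.5% of all genes, and 0 members were higher in each pair, as were 16.7% of all genes. The 8 include Tfap2a and Gad2, which met the 2 FPKM level through their WT values, so these counts are favoured too. For the 6 members with a mean of at least 5 FPKM, the median difference was −0.35. No member had groups that did not overlap, against 4.34% of all genes.

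**Figure D2:**
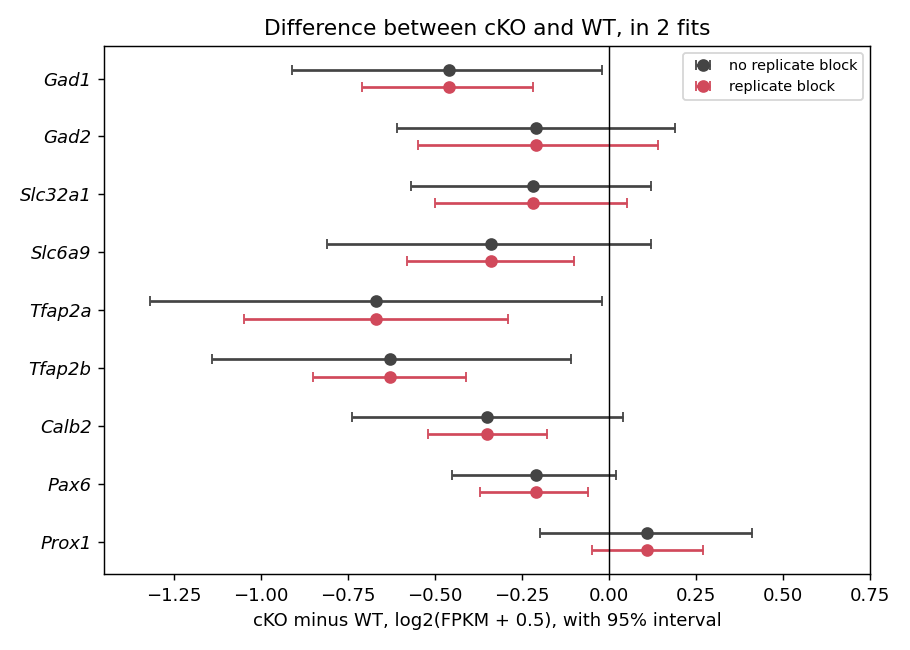
Difference of cKO minus WT in log2(FPKM + 0.5) for each member (points) with its 95% interval (bars), without (black) and with (red) the replicate number as a block. The estimates are the same in both fits, from −0.67 for Tfap2a to 0.11 for Prox1, and the intervals are narrower with the block.

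Calls were lost whichever pair was left out, with 2 residual degrees of freedom in place of 3. With the block and without pair 1, 0 of the 9 members passed, at differences of −0.60 for Tfap2b, −0.63 for Tfap2a, −0.38 for Gad1 and −0.32 for Calb2. Without pair 3 or without pair 4, Tfap2b alone passed, and without pair 5, Tfap2b, Gad1 and Calb2 passed. With quantile scaling and the block, Tfap2b, Calb2 and Pax6 passed. In the 6 libraries with Xist, without the block, the median difference of the members was −0.18 and 0 passed. There Tfap2b differed by −0.37, Tfap2a by −0.28, Gad1 by −0.27, Gad2 by −0.09 and Slc6a9 by −0.11, while Calb2 differed by −0.40, Slc32a1 by −0.18, Pax6 by −0.17 and Prox1 by 0.09. These 6 libraries set cKO 1 and 3 against WT 1, 3, 4 and 5, so replicate numbers were not balanced between the groups. Within pairs 1 and 3, where both libraries had Xist, the median member difference was −0.41 and −0.32. The part of this imbalance in the smaller differences was not tested.

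With all 8 libraries and no covariate, the AP-2 factors had the largest differences of the members, whereas Calb2 had the largest in the 6 libraries with Xist and with the covariate described below. Tfap2b, AP-2 beta (ENSMUSG00000025927; GRCm38 chromosome 1, 19208914 to 19238576, plus strand), is a DNA-binding factor of amacrine and horizontal precursors. It was at 8.14, 8.65, 6.29 and 5.26 FPKM in cKO 1, 3, 4 and 5, against 13.6, 15.6, 8.64 and 7.95 FPKM in WT 1, 3, 4 and 5. Libraries 1 and 3 were the higher ones in both groups, and the groups overlapped where cKO 1 and cKO 3 exceeded WT 5 and cKO 3 exceeded WT 4 by a narrow margin. The difference was −0.63 (SE 0.23, limma adjusted p = 0.453; SE 0.09 and adjusted p = 0.00794 with the block). Without pair 1 the adjusted p with the block was 0.0506. Tfap2a, AP-2 alpha, its close relative (ENSMUSG00000021359; chromosome 13, 40715302 to 40738376, minus strand), was at 2.44, 2.62, 1.23 and 1.28 FPKM in cKO 1, 3, 4 and 5, against 4.58, 3.78, 3.04 and 1.85 FPKM in WT 1, 3, 4 and 5. Here too libraries 1 and 3 were the highest of their group, and WT 5 lay within the cKO range. The difference was −0.67 (SE 0.29, limma adjusted p = 0.469; SE 0.17 and adjusted p = 0.0421 with the block). It ranged from −1.03 in pair 4 to −0.40 in pair 5.

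Among the GABA genes, Gad1 fell with the block while Gad2 and Slc32a1 did not pass. Gad1, the glutamate decarboxylase GAD67 (ENSMUSG00000070880; chromosome 2, 70553072 to 70602014, plus strand), was at 8.08, 8.46, 5.92 and 6.58 FPKM in cKO 1, 3, 4 and 5, against 13.5, 12.4, 8.45 and 7.32 FPKM in WT 1, 3, 4 and 5. Libraries 1 and 3 were again the highest in each group. The difference was −0.46 (SE 0.20, limma adjusted p = 0.469; SE 0.11 and adjusted p = 0.0350 with the block). Within pairs it was −0.70, −0.53, −0.48 and −0.14 in pairs 1, 3, 4 and 5. Gad2, the second decarboxylase, GAD65 (chromosome 2, 22622205 to 22693874, plus strand), was at 1.67 to 2.10 FPKM in cKO and at 1.91 to 2.62 FPKM in WT, and differed by −0.21 (95% interval with the block −0.55 to 0.14, limma adjusted p = 0.408). The ratio of Gad1 to Gad2 in FPKM was 3.38 to 4.04 in cKO and 3.62 to 5.14 in WT. Slc32a1, the vesicular GABA and glycine carrier VGAT (chromosome 2, 158610767 to 158615748, plus strand), was at 3.44 to 4.10 FPKM in cKO and at 3.58 to 5.60 FPKM in WT. It differed by −0.22 (interval with the block −0.50 to 0.05, limma adjusted p = 0.261). Both intervals include a fall as large as that of Gad1 as well as no change. Whether the 3 genes differ from one another in response was not tested.

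**Figure D3:**
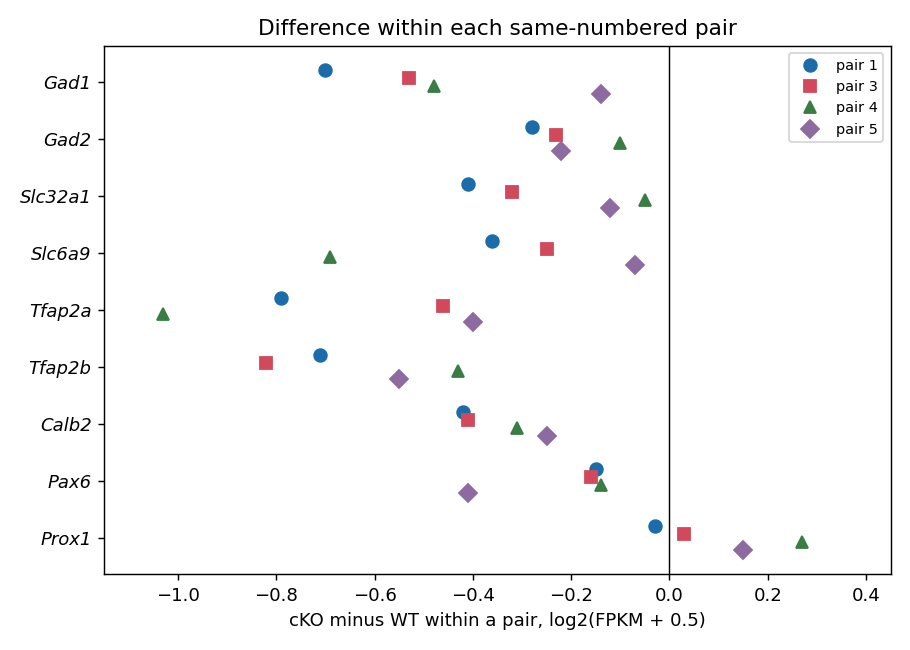
Difference of cKO minus WT in log2(FPKM + 0.5) within each same-numbered pair, 1 symbol per pair, for each member. All 4 symbols lie below 0 for 8 genes, with the widest spread in Tfap2a and Slc6a9, and Prox1 lies on both sides of 0.

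Slc6a9 encodes GlyT1, the plasma membrane glycine transporter of glycinergic amacrine cells (ENSMUSG00000028542; chromosome 4, 117834506 to 117875198, plus strand). It was at 16.0, 14.9, 8.14 and 14.8 FPKM in cKO 1, 3, 4 and 5, against 20.7, 17.8, 13.4 and 15.6 FPKM in WT 1, 3, 4 and 5. Library 4 was the lowest in both groups, and in cKO it stood far below the other 3. The difference was −0.34 (SE 0.21, limma adjusted p = 0.538; SE 0.10 and adjusted p = 0.0766 with the block), and without pair 4 it was −0.23. On the opposite strand the gene overlaps Ccdc24, which differed by −0.68 (limma adjusted p = 0.00275 with the block), and B4galt2, which differed by −0.12 (limma adjusted p = 0.427 with the block). The strand setting of the counting is not given in the sources used here, so reads of overlapping genes may not be separated.

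Of the calcium-binding proteins, only calretinin could be examined. Calb2, calretinin, a marker of several amacrine types and of ganglion cells (ENSMUSG00000003657; chromosome 8, 110137502 to 110168210, minus strand), was at 13.5, 8.90, 13.5 and 10.4 FPKM in cKO 1, 3, 4 and 5, against 18.2, 12, 16.8 and 12.6 FPKM in WT 1, 3, 4 and 5. Libraries 1 and 4 were the higher ones in both groups, an order unlike that of Gad1 and the AP-2 factors. The difference was −0.35 (SE 0.17, limma adjusted p = 0.489; SE 0.07 and adjusted p = 0.0270 with the block), and it lay between −0.42 and −0.25 in the 4 pairs.

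Pax6 and Prox1, homeobox factors that Müller cells also express, did not pass in either fit. Pax6, a regulator of eye development (ENSMUSG00000027168; chromosome 2, 105668900 to 105697364, plus strand), was at 146, 165, 163 and 129.7 FPKM in cKO 1, 3, 4 and 5, against 162, 185, 180.1 and 172 FPKM in WT 1, 3, 4 and 5. The groups overlapped only where cKO 3 and cKO 4 exceeded WT 1, and the difference was −0.21 (SE 0.10, limma adjusted p = 0.482; SE 0.07 and adjusted p = 0.0851 with the block). Prox1, a factor of horizontal and AII amacrine cells (ENSMUSG00000010175; chromosome 1, 190118035 to 190170714, minus strand), was at 82.9, 86.8, 74.7 and 99.9 FPKM in cKO 1, 3, 4 and 5, against 84.6, 84.9, 61.6 and 90.2 FPKM in WT 1, 3, 4 and 5. Its groups overlapped over most of their range, with a difference of 0.11 (interval with the block −0.05 to 0.27, limma adjusted p = 0.351) that was −0.02 without WT 4. Both genes have antisense neighbours with rows of their own. For Pax6 this was Pax6os1 (0.21, limma adjusted p = 0.342 with the block). For Prox1 these were Prox1os (0.17, limma adjusted p = 0.523) and Gm28172 (−0.02, limma adjusted p = 0.976), both with the block.

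Several members shared an order of libraries that was not one of genotype alone. Averaged over the 9 members, each centred on its own mean, the log2 values were −0.01, −0.05, −0.33 and −0.27 in cKO 1, 3, 4 and 5, against 0.42, 0.30, 0.00 and −0.04 in WT 1, 3, 4 and 5. Thus cKO 1 and cKO 3 stood level with WT 4 and WT 5. The mean log2(FPKM + 0.5) of 81 genes annotated as TEC (awaiting experimental proof) or as sense intronic, classes that often lie within introns, was 2.21, 2.46, 1.86 and 1.64 in cKO 1, 3, 4 and 5, against 2.59, 2.76, 2.27 and 2.0 in WT 1, 3, 4 and 5. It was lower in cKO in all 4 pairs, by 0.29 to 0.41. With this mean as a covariate and without the block, the median difference of the members was −0.17, Tfap2b differed by −0.24, Tfap2a by −0.23, Gad1 by −0.17, Gad2 by −0.06, Slc6a9 by −0.18 and Calb2 by −0.39, and 0 of 9 passed. The part of such RNA in the differences cannot be told apart from genotype within the pairs. Across all genes the difference fell with transcript length (Spearman correlation −0.33 over 12327 genes, which are not independent replicates). After a correction for length and GC content per library, the same 4 members passed with the block, with differences of −0.58 for Tfap2b, −0.68 for Tfap2a, −0.48 for Gad1 and −0.44 for Calb2.

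**Figure D4:**
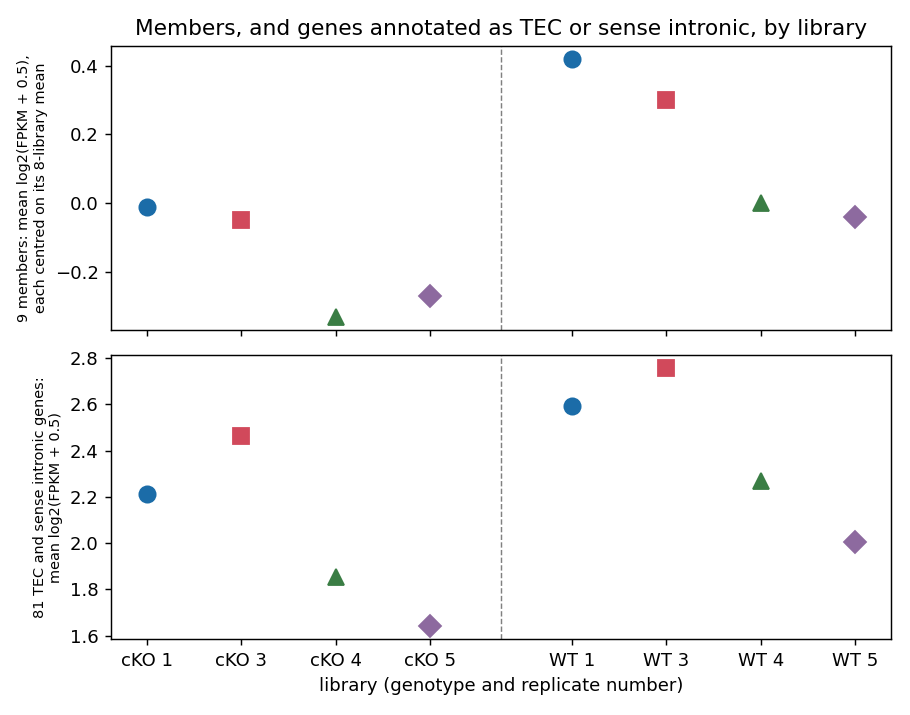
Mean centred log2(FPKM + 0.5) of the 9 members (top) and mean log2(FPKM + 0.5) of 81 TEC and sense intronic genes (bottom) in each library, cKO at the left of the dashed line and WT at the right. In both panels WT 1 and WT 3 are the highest libraries and cKO 4 and cKO 5 the lowest.

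Other genes of the same cells and of inhibitory transmission were taken from further lists. Of 31 other amacrine genes, 15 had a row, and among the 16 without one were Chat and Slc18a3 of cholinergic cells and Th of dopaminergic cells. Of the 15, 8 had a difference below 0 (median −0.22), as did 49.3% of all genes. In all 4 pairs 8 were lower and 2 higher, where 19.5% of all genes were lower and 16.7% higher. With the block 3 of the 15 fell, 0 rose and 12 did not pass, where 7.59% of all genes fell and 2.99% rose. Among those that fell were Elavl3, a neuronal RNA-binding protein (−0.38, limma adjusted p = 0.0301), and Megf10, a receptor in the spacing of starburst cells that Müller glia also express (−0.31, limma adjusted p = 0.0461). Of 10 other horizontal cell genes 4 had a row, and among those without one were Lhx1, the Onecut genes and Gja10. Slc12a7, a potassium and chloride cotransporter, fell with the block (−0.65, limma adjusted p = 0.0346) and the other 3 did not pass. The median of the 4 was 0.02. Isl1 (0.21) and Gja1 (0.27) were higher in all 4 pairs, as were 16.7% of all genes. Slc12a7 was lower in all 4 pairs, as were 19.5% of all genes. The median describes these 4 genes alone, and which cells their RNA came from was not tested. Without the block 0 genes of either list passed.

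Most receptors for GABA and glycine and genes of uptake and breakdown did not pass. Of 28 such genes 16 had a row, and with the block 2 fell, 1 rose and 13 did not pass (median −0.05), where 7.59% of all genes fell and 2.99% rose. Gabbr1, which encodes a GABA-B receptor subunit, was at 55.7 ± 1.01 FPKM in cKO and 84.6 ± 7.51 FPKM in WT (SD, n = 4 each) and fell by 0.59 (limma adjusted p = 0.00288 with the block, 0.149 without it). Gabrr1, a GABA-C receptor subunit of bipolar cells, was at 143 ± 17.7 FPKM in cKO and 113 ± 11.9 FPKM in WT (SD, n = 4 each) and rose by 0.33 (limma adjusted p = 0.0181 with the block, 0.453 without it). Among 13 genes of synaptic release, 0 fell and 2 rose with the block, and 11 did not pass. Those that rose were Vamp2, a vesicle SNARE (0.32, limma adjusted p = 0.0194 with the block, 0.454 without it), and Cplx3, a complexin of bipolar, photoreceptor and some amacrine synapses (0.33, limma adjusted p = 0.0315 with the block, 0.469 without it). With the covariate from TEC and sense intronic genes and without the block, the difference was 0.21 for Gabrr1, 0.21 for Vamp2, 0.13 for Cplx3, −0.18 for Elavl3 and −0.35 for Slc12a7.

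Marker lists of other retinal cells were counted in the same way, with no test between lists. Without the block 0 of their genes passed, and with it the shares of all genes that fell and rose were again 7.59% and 2.99%. With the block, 3 of 7 ganglion cell markers fell and 0 rose, with a summed level of 48.0 to 68.2 FPKM in cKO and 65.9 to 88.7 FPKM in WT. Pou4f1, Pou4f2 and Isl2 of that list had no row. Of 10 bipolar markers 5 rose and 0 fell, with sums of 2525 to 3214 FPKM in cKO and 2038 to 2594 FPKM in WT. Of 12 Müller markers 2 fell and 0 rose (7007 to 10114 FPKM in cKO and 7091 to 11623 FPKM in WT), and of 9 rod markers 0 passed (3192 to 4848 FPKM in cKO and 2925 to 4759 FPKM in WT). Of 6 cone markers 3 fell and 1 rose (98 to 111 FPKM in cKO and 86.3 to 110.2 FPKM in WT), and of 4 astrocyte markers 0 fell and 2 rose (238 to 392 FPKM in cKO and 113 to 264 FPKM in WT). The astrocyte sum was mostly Gfap, at 155 to 304 FPKM in cKO and 55.3 to 166 FPKM in WT. S100b was the other that rose, while Aldh1l1 (0.10) and Pdgfra (0.15) did not pass and Pax2 of that list had no row. The values do not tell which cells the Gfap RNA came from, so the sum is not a measure of astrocyte RNA. The single endothelial marker with a row, Kdr, did not pass, and the microglial list had no row. The 9 members summed to 273 to 301 FPKM in cKO and 298 to 339 FPKM in WT, most of it from Pax6 and Prox1. Without these 2 genes the sums were 40.2 to 54.3 FPKM in cKO and 51.4 to 78.7 FPKM in WT. The part of the mixture of cell types in the members' differences was not tested.

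**Figure D5:**
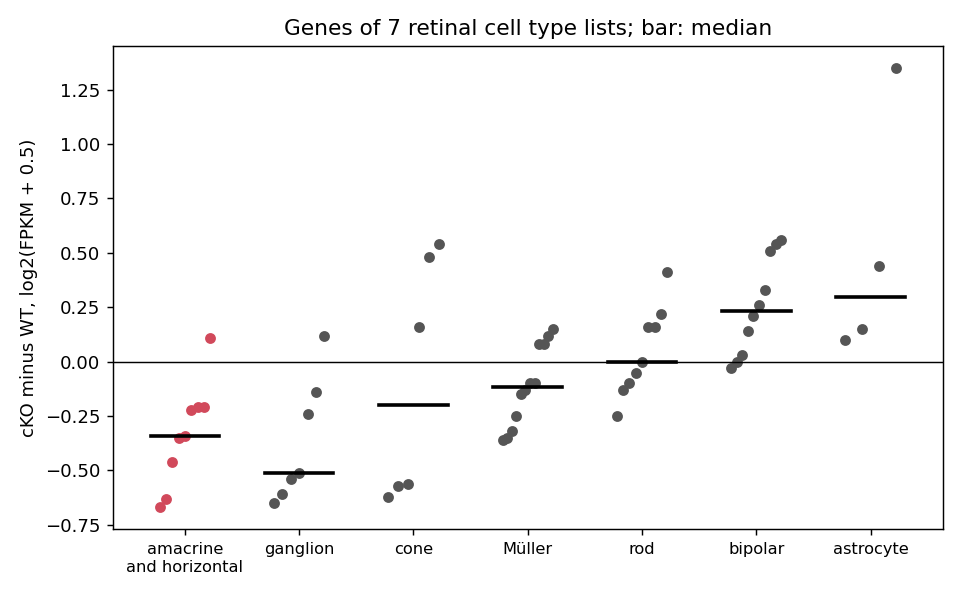
Difference of cKO minus WT in log2(FPKM + 0.5) for each gene of 7 retinal cell type lists (points), with the list median (bar) and the amacrine and horizontal list in red. The medians run from −0.51 for ganglion cells and −0.34 for the members to 0.23 for bipolar cells and 0.29 for astrocytes.

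The 5 genes outside the list whose log2 values followed the members' mean most closely over the 8 libraries were Setdb1, Strada, Myo7a, Lgr5 and Akap1, with Pearson correlations of 0.986, 0.983, 0.981, 0.980 and 0.979. They were picked as the highest of all genes, so the correlations describe the ranking alone. Setdb1, a histone methyltransferase, was at 12 to 13.2 FPKM in cKO and 13.0 to 16.0 FPKM in WT. Lgr5, a receptor for R-spondins, was at 3.44, 4.28, 2.03 and 2.56 FPKM in cKO 1, 3, 4 and 5, against 8.49, 8.12, 4.03 and 3.98 FPKM in WT 1, 3, 4 and 5. As in Gad1 and the AP-2 factors, libraries 1 and 3 were the highest of each group.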

How the data were processed

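Libraries were poly(A)-selected and strand-specific (NEBNext), from RNA purified on RNeasy Micro columns, per the labels' protocols. The authors deposited 1 table of FPKM with 1 column per library; the unit is given by its name. STAR, edgeR, GRCm38 and mm10 are listed without version or role, per the submitters' processing notes. The counting tool, annotation, strand setting and gene filter are not given in the sources used here. Depth is unknown, and counting intervals were not derived.

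On log2(FPKM + 0.5), limma 3.58.1 (R 4.3.3; eBayes with a trend) set 4 cKO against 4 WT libraries, two-sided. P-values were adjusted over all 12339 genes by the Benjamini-Hochberg method, and 0.05 was the limit for a call. Each difference is cKO minus WT. A fold on this scale understates that of low genes. The same numbers occur in both groups. After each group's mean was removed, correlations across genes between a cKO and a WT library ran between 0.261 and 0.591 where the numbers matched and between −0.479 and 0.211 where they did not. The rule asked for over 0.1 in every equal-numbered pair, so the numbers were taken to pair the libraries; the labels do not say what a number marks. The fit with the number as a block left 3 residual degrees of freedom instead of 6.

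Both fits were tested on simulated data. Gene positions and transcript lengths were taken from GENCODE mouse release 21 (GRCm38). Other settings were further pseudocounts, scalings, library weights, eBayes options, a minimum mean of 5 FPKM and leaving out libraries or pairs. Chosen after seeing the data were the length and GC correction (splines with 4 degrees of freedom), the covariate from TEC and sense intronic genes, and the 6 libraries with Xist. The members, the lists and the tests were chosen with earlier results of these data known. The rule for named genes took the members, Nfe2l2, Rpl22, Glul and Rlbp1, from each further list any gene past the threshold with the block and up to 3 with the smallest p, and the 5 genes most like the members' mean. Not all of these are described, and some items are not reported here. Xist, Kdr, the astrocyte markers, the overlapping genes and the genes without a row were named outside that rule, after their values or absence were seen.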

Additional observations from a re-analysis of the deposited data

Results flagged for a closer look

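Slc6a9 in cKO 4 was at 8.14 FPKM, against 14.8 to 16.0 FPKM in the other 3 cKO libraries, a gap of 0.852 of the range of the group. Rlbp1 in cKO 4 was at 1577 FPKM, against 1233 to 1245 FPKM in the other cKO libraries (gap of 0.964 of the range). Glul in WT 4 was at 5101 FPKM, against 3317 to 3595 FPKM in the other WT libraries (gap of 0.844). Each was marked because the sample stood apart from the other 3 by more than the Dixon limit for 4 values, and chance marks about 1 group in 20.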

How the results depend on the processing

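Without the replicate block, 0 of 9 members and 0 of 12339 genes passed in limma, with 3 members and 1310 genes at an unadjusted p under 0.05. With the replicate block 4 members and 1305 genes passed, with median-of-ratios scaling added 4 and 1300, with quantile scaling added 3 and 1058, and with the length and GC correction added 4 and 918. With the block and 1 pair left out, 0 to 3 members and 402 to 821 genes passed (606 without pair 3 and 524 without pair 4). Library weights gave 0 members and 1 gene, and the libraries with Xist alone 0 members and 1 gene. Leaving out 1 library without the block gave 0 members and 0 genes each time. The median difference of the members lay between −0.48 and −0.17 over all 29 settings, and between −0.42 and −0.25 with 1 library left out. A setting counted as the same within 0.19 of the reported −0.34, which held for all. That limit is the SD of the members' mean between libraries of a group, not the error of a difference, and −0.17 lies within it. Of 258 values of single members under other settings, 234 kept their direction and their side of the threshold, 20 passed, all of them with the block, and 4 changed sign. Prox1 lay between −0.02 (without WT replicate 4) and 0.17 with 1 library left out. With the block and the covariate from TEC and sense intronic genes together, Tfap2a was at 0.94, Slc6a9 at 0.76 and Prox1 at −0.45, with standard errors of 1.37, 0.82 and 0.58, since that covariate was lower in cKO by nearly the same amount in every pair. Nfe2l2 lay between −0.59 and −0.38 with 1 library left out, where the exact permutation p was 0.0571, the smallest this number of libraries allows. With the block it was at −0.51 without pair 1 (limma adjusted p = 0.0785), −0.45 without pair 4 (0.0846), −0.42 without pair 5 (0.0634) and −0.60 without pair 3 (0.0182). In the libraries with Xist alone Nfe2l2 was at −0.39 (exact permutation p = 0.133, again the smallest this number of libraries allows). Weights and eBayes options do not enter its permutation test. The causes of these shifts were not tested. Genes under a mean of 2 FPKM could not be examined.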
